A study of Mus musculus with 6 samples.

Results

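The C40 line of Py2T cells was set against 2 other groups at once, to describe the genes for which it was no midpoint between untreated cells and cells kept at a higher dose of hydrogen peroxide. Py2T is an epithelial cell line grown out of a tumour of the mouse mammary gland. Its RNA was measured in 6 libraries, 2 per group. The C40 cells had been given 40 µM H2O2 every day for 4 months, the I60 cells 60 µM over the same time, and the PBS cells 0 µM. The labels name no altered gene in any group. The submitters describe each pair of libraries as biological replication, and whether they were kept apart during the 4 months is not known here. Each dose is represented by 1 line, so an effect of H2O2 and a change that arose in that line without it cannot be told apart.

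Genes with at least 1 CPM (reads of a gene scaled to the size of its library) in at least 2 libraries were tested, which left 11524 of the 24454 in the table. For each, the mean level of C40 was compared with the average of the PBS and I60 means, on the scale log2(CPM + 0.5). This difference is called the C40 contrast below. A gene was counted as C40-high when limma gave the contrast an adjusted p below 0.05 and the C40 mean lay above the means of both other groups. It was counted as C40-low when the contrast was called and the C40 mean lay below both. There were 575 C40-high and 278 C40-low genes, 853 in all.

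Epithelial cells hold on to each other through tight junctions, adherens junctions and desmosomes, and can lose these and take on a mesenchymal state, in which they make matrix and its receptors. Transcription factors of the Snail, Zeb, Twist and Prrx families drive this change and repress epithelial genes. Intermediate states, with some epithelial and some mesenchymal genes on, are well known in mammary tumour cells. H2O2 is made by cells as a signal and is removed by catalase, peroxiredoxins and glutathione peroxidases, some of which are induced through the transcription factor NRF2.

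The libraries held 48113692 to 60260520 reads. Keratins 8 and 18, which mark simple epithelium such as that of the mammary gland, were at 1059 to 1707 CPM in every library. The luminal markers Krt7 and Epcam were not steady. Krt7 was at 3115 and 3024 CPM in PBS, 792 and 863 in C40 and 3.28 and 3.04 in I60. Epcam was at 307 and 410 CPM in PBS, 41.9 and 52.5 in C40 and 0.73 and 1.07 in I60. The C40 libraries were less alike (r = 0.962 across genes, which are not independent replicates) than those of PBS (0.988) or I60 (0.987). More than a 2-fold gap lay between the replicates for 1022 genes in C40, against 223 in PBS and 217 in I60. Along the second principal component (21.6% of the variance) C40 stood at -33.9 and -56.3, PBS at 16.2 and 11.2 and I60 at 35.1 and 27.8. Of the C40-low genes, 196 were lower in C40 replicate 2 and 78 in replicate 1. For the C40-high genes the split was more even, with 322 higher in replicate 2 and 253 in replicate 1. Among C40-high genes 54 differed over 2-fold between the C40 libraries, and among C40-low genes 18 did.

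In all, limma called 715 genes higher in C40 than the average of the other groups (6.20% of those tested) and 418 lower (3.63%). Of these 1133 genes, 280 had a C40 mean between those of PBS and I60, or equal to 1 of them (140 higher and 140 lower than the average), and belong to neither class. The remaining 575 C40-high genes were 4.99% of those tested, and the 278 C40-low genes 2.41%. Both C40 libraries lay above all 4 others for 493 of the C40-high genes (4.28% of genes tested), and below them for 234 of the C40-low genes (2.03%). Without regard to the call, both C40 libraries lay above the other 4 for 1204 genes (10.4%) and below them for 1112 (9.65%).

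The classes hold genes of different kinds, since a large step from PBS can carry the contrast where C40 and I60 are alike. Among the C40-high genes, 196 (1.70% of genes tested) were called higher in C40 than in PBS and also than in I60, each difference adjusted over all genes. Another 291 were called only against PBS, 86 only against I60 and 2 against neither. Of the C40-low genes, 71 (0.616%) were called lower than each group, 138 than PBS alone, 68 than I60 alone and 1 than neither. Of the 196, 131 showed no called difference between I60 and PBS, 48 were higher in I60 than in PBS and 17 were lower. Of the 71, 50 showed no such call, 10 were lower in I60 and 11 were higher. The smaller of the 2 differences reached 2-fold in 221 C40-high and 75 C40-low genes, and 4-fold in 75 and 11.

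**Figure D1:**
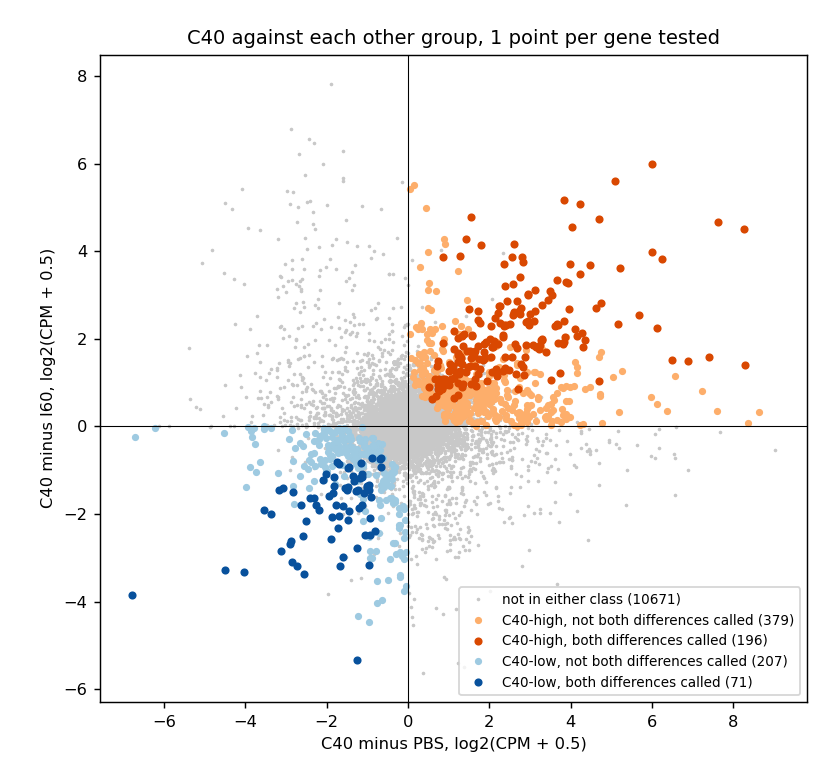
Each of the 11524 genes tested is placed by its C40 minus PBS difference (x axis) and its C40 minus I60 difference (y axis), both on the log2(CPM + 0.5) scale. Genes at the upper right were highest in C40 and genes at the lower left lowest. Dark points are the 196 and 71 genes called against each group, and pale points near an axis are genes where C40 and 1 of the other groups were alike.

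The counts depend on single libraries. Each fit without a library leaves a group with 1 library, which adds nothing to the estimate of the spread. With a C40 library left out, the gap between the C40 libraries no longer enters that estimate. Leaving out either PBS or either I60 library brought the C40-high genes to between 229 and 334 and the C40-low genes to between 99 and 122. Without C40 replicate 1, they rose to 946 and 856. Of the 853 members, 579 left their class in at least 1 of the 6 such fits. For a C40-high or C40-low gene given below with its level in every library, the libraries without which it left its class are named (PBS-1 is replicate 1 of PBS, and so on), mostly with the range of its limma adjusted p over the 6 fits. Where none is named for such a gene, it stayed in its class in all 6. The filter also bears on the counts, since 160 of the genes tested passed it only through the C40 libraries, and 86 of these were C40-high. Outside the Hox and neural-type lists, the C40-high list members among them were Snai2, Loxl1, Loxl3, Ltbp2, Ifit2, C1s1, Itgb8, Dcn, Tbx3 and Gstt1.

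The 15 C40-high genes named by rule were those with the largest smaller difference, at 5 CPM or more in C40 and with both C40 libraries above the rest. Il1rl1 (ST2, the receptor of interleukin 33; GRCm38 chromosome 1, 40404864 to 40465418) led them. It stood at 3.1 and 0.83 CPM in PBS, 1.57 and 1.84 in I60 and 154 and 129 in C40. The C40 contrast was 6.01 (SE 0.39) on the log2 scale (limma adjusted p = 0.000548), with no called difference between I60 and PBS (0.01, adjusted p = 0.988). Both C40 libraries were high and the other 4 all low, so that the groups treated with 0 and 60 µM resembled each other.

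Secreted proteins of the matrix made up a share of the leading genes. Ltbp2, a protein of elastic microfibrils (chromosome 12, 84783212 to 84876558), was measured at 1.45 and 0.697 CPM in PBS, 0.468 and 0.682 in I60 and 56.7 and 46.8 in C40 (contrast 5.35 (SE 0.27), limma adjusted p = 0.000212). Igfbp7, a secreted protein related to the binding proteins of insulin-like growth factors (chromosome 5, 77349240 to 77408045), was at 0.193 and 0.0996 CPM in PBS, 0.225 and 0.0553 in I60 and 16.3 and 16.4 in C40, with a contrast of 4.72 (SE 0.21) and an adjusted p of 0.000201. Both genes were nearly silent outside C40. Efemp2 (fibulin-4, needed to assemble elastic fibres; chromosome 19, 5473946 to 5482520) was at 3.17 and 2.87 CPM in PBS, 0.918 and 0.847 in I60 and 59.2 and 41.6 in C40, and its contrast was 4.51 (SE 0.23) (limma adjusted p = 0.000212). Here the 2 lines moved apart from PBS in opposite directions, by 3.83 in C40 and -1.35 in I60 on the log2 scale, and both differences were called (adjusted p = 0.000192 and 0.00919).

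Il1rl1, Ltbp2 and Igfbp7 were also the 3 genes still called (limma adjusted p = 0.0162 each) when the PBS and I60 libraries were treated as 1 group of 4, a model in which their own difference counts as spread.

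Receptors of the cell surface formed another part. Adgra2 (GPR124, an adhesion receptor that takes part in Wnt signalling; chromosome 8, 27085520 to 27123436) was found at 1.86 and 1.76 CPM in PBS, 12.6 and 23.8 in I60 and 358 and 574 in C40, with a contrast of 6.14 (SE 0.31) (limma adjusted p = 0.000212). I60 was itself above PBS by 2.95, and C40 was above I60 by 4.67. Ddr2, a receptor kinase that binds fibrillar collagen (chromosome 1, 169972307 to 170110836), was at 0.385 and 0.531 CPM in PBS, 1.74 and 6.17 in I60 and 34.6 and 106 in C40 (contrast 4.99 (SE 0.56), adjusted p = 0.00298). Its C40 libraries lay far apart. Sema5a, a membrane-bound guidance cue (chromosome 15, 32244813 to 32696341), was at 0.665 and 0.763 CPM in PBS, 1.03 and 2.41 in I60 and 30.3 and 23.6 in C40 (contrast 4.09 (SE 0.30), adjusted p = 0.000752).

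Inside the cell, genes best known from neurons were among those raised. Dpysl3, which guides the growth of nerve fibres through the cytoskeleton (chromosome 18, 43320979 to 43438286), was at 0.123 and 0.0498 CPM in PBS, 6.14 and 8.99 in I60 and 151 and 213 in C40, with a contrast of 6.38 (SE 0.25) (limma adjusted p = 0.000196). Syt7, a calcium sensor for the fusion of vesicles and lysosomes with the cell membrane (chromosome 19, 10388802 to 10453181), was at 1.02 and 0.232 CPM in PBS, 5.66 and 4.77 in I60 and 51.9 and 123 in C40 (contrast 5.04 (SE 0.43), adjusted p = 0.00107). Both were low in PBS, higher in I60 and highest in C40. Adcy1, an adenylyl cyclase stimulated by calcium (chromosome 11, 7063433 to 7178506), had 0 reads in both PBS libraries, 1.01 and 1.05 CPM in I60 and 19.1 and 17.3 CPM in C40. It was thus at least 711-fold higher in C40 than in PBS, taking 3 reads over the PBS group as the floor, and 3.61 higher than in I60 on the log2 scale (limma adjusted p of the contrast = 0.000196).

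The last 3 leading genes besides those of the GDNF system were of other kinds. Moxd1, a relative of dopamine beta-hydroxylase (chromosome 10, 24223517 to 24302783), was at 0.21 and 0.299 CPM in PBS, 0.0187 and 0.0368 in I60 and 6.19 and 22.3 in C40, and 3 reads in I60 put the ratio of C40 to I60 at 528 (95% interval 180.4 to 2564) (limma adjusted p of the contrast = 0.00251). Mvb12b, a subunit of the ESCRT-I complex that sorts membrane proteins for breakdown (chromosome 2, 33729953 to 33887946), was at 3.19 and 2.69 CPM in PBS, 5.66 and 4.94 in I60 and 54.6 and 74.5 in C40 (contrast 3.85 (SE 0.22), adjusted p = 0.000342). Hoxb8 is given with the other Hox genes below.

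**Figure D2:**
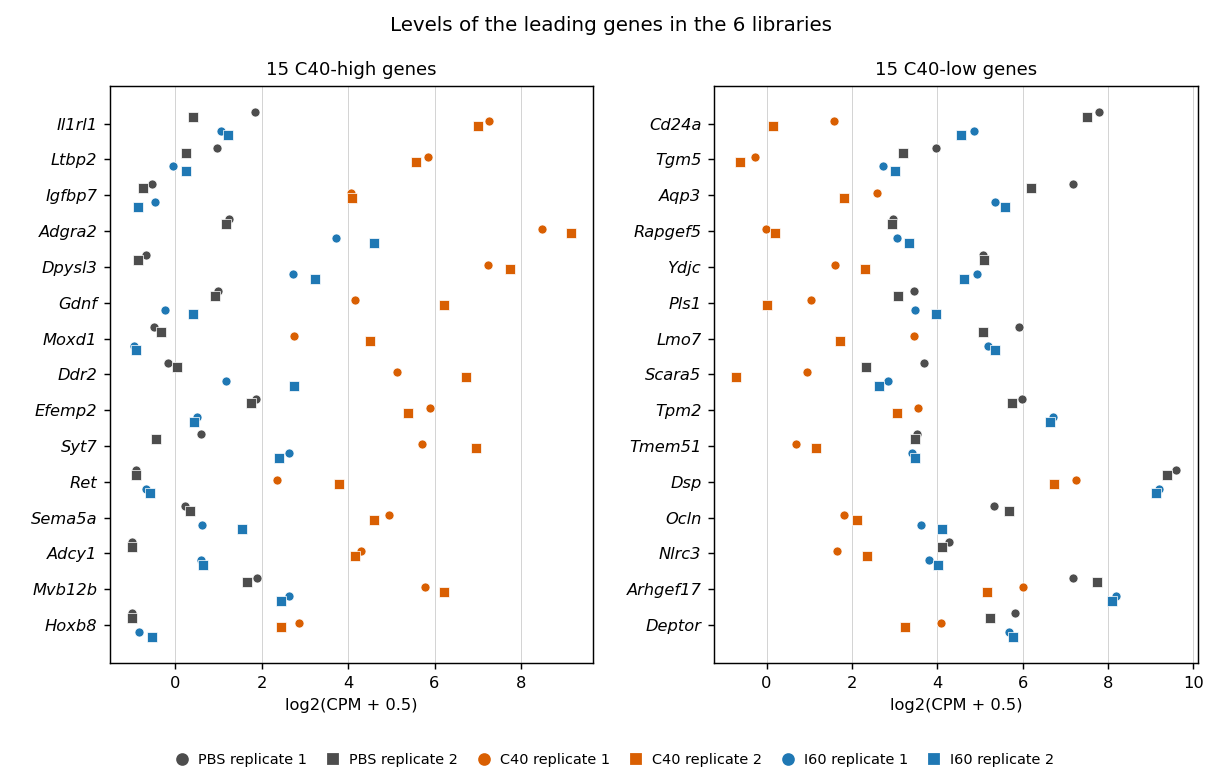
Levels of the 15 leading C40-high genes (left) and the 15 leading C40-low genes (right) on the log2(CPM + 0.5) scale, with 1 point per library, coloured by group. In every row both C40 points lie to 1 side of the 4 others, as the rule that chose the genes requires. The C40 points lie furthest apart for Gdnf, Moxd1, Lmo7, Scara5 and Ddr2, followed by Cd24a and Ret.

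GDNF, a growth factor for neurons and for the kidney bud, binds a co-receptor of the GFRA family, and the pair then activates the receptor kinase RET. In C40 the ligand, the kinase and 2 co-receptors were all C40-high. Gdnf (chromosome 15, 7810048 to 7837580) was at 1.49 and 1.39 CPM in PBS, 0.356 and 0.829 in I60 and 17.3 and 73.4 in C40, with a contrast of 4.65 (SE 0.54) (limma adjusted p = 0.0033). Ret (chromosome 6, 118151748 to 118197744) was at 0.035 and 0.0332 CPM in PBS, 0.131 and 0.166 in I60 and 4.63 and 13.3 in C40 (contrast 3.84 (SE 0.38), adjusted p = 0.0020). For both, C40 replicate 2 was above replicate 1.

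Gfra1 and Gfra2 were chosen after their values were seen. Gfra2, the co-receptor that prefers neurturin, was at 0.070 and 0 CPM in PBS, 0.0187 and 0 in I60 and 3.22 and 4.16 in C40, where a read in I60 gave a ratio of C40 to I60 of 400.4 (95% interval 71.4 to 15854) (adjusted p of the contrast = 0.000611). Gfra1, the preferred co-receptor of GDNF, was at 0.0175 and 0 CPM in PBS, 0.618 and 1.29 in I60 and 1.41 and 2.02 in C40 (adjusted p of the contrast = 0.0211). It was not called higher than I60 (0.64, adjusted p = 0.279), and it left the class without PBS-1, PBS-2, C40-2 or I60-1 (adjusted p 0.0147 to 0.0752). Ncam1, an adhesion molecule that GDNF can also signal through, was at 1.3 and 1.24 CPM in PBS, 10.9 and 21 in I60 and 68.9 and 120.1 in C40 (contrast 4.12 (SE 0.33), limma adjusted p = 0.00101). Of the other ligands of the family, also looked at afterwards, Artn was at 26.5 and 29.1 CPM in PBS, 0.0375 and 0.0921 in I60 and 0.145 and 0.405 in C40, so that it was low in both lines, while Nrtn and Pspn stayed at or below 0.398 CPM everywhere. Gfra3 and Gfra4 were at 0 reads in both C40 libraries.

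Il1rl1 lies beside other receptors of the interleukin 1 family on chromosome 1, and its neighbours were looked up after its value was seen. Il18r1, a subunit of the interleukin 18 receptor (chromosome 1, 40465552 to 40500854), was at 78.6 and 51 CPM in PBS, 5.45 and 7.17 in I60 and 249 and 139.6 in C40 (contrast 3.17 (SE 0.29), limma adjusted p = 0.00149). C40 was above PBS by 1.55 and I60 was below it by 3.24. Il18rap, the other subunit (chromosome 1, 40515362 to 40551707), was at 41.5 and 35.3 CPM in PBS, 35.4 and 30.8 in I60 and 154 and 79.3 in C40 (contrast 1.62 (SE 0.27), adjusted p = 0.0135), and left the class without PBS-1, PBS-2, I60-1 or I60-2 (adjusted p 0.00158 to 0.0668). Il1r1, the receptor of interleukin 1 in the same stretch, was at 2.22 and 1.05 CPM in PBS, 40.4 and 52 in I60 and 56.1 and 35.1 in C40, with overlapping libraries in C40 and I60 (difference -0.05, adjusted p = 0.962), and is no C40-high gene. Of the ligand genes, Il33 was at or below 0.436 CPM in every library, and Il18 was at 0.945 and 0.597 CPM in PBS, 7.15 and 11.5 in I60 and 2.1 and 1.64 in C40.

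Hox genes give cells their place along the body axis and lie in clusters. Of 14 tested members of the Hox list, 7 were C40-high and 0 C40-low, with a median contrast of 0.98, or 1.53 with groups at 0 reads set to the floor, where the median over all genes tested was -0.02. Of these 7, 5 (Hoxa3, Hoxa7, Hoxa10, Hoxb5 and Hoxb8) reached the filter of 1 CPM in 2 libraries only through C40, so the count and median over the 14 tested follow in part from the filter. Hoxb8 (chromosome 11, 96279401 to 96285325) had 0 reads in PBS, 0.0562 and 0.184 CPM in I60 and 6.78 and 4.99 CPM in C40, at least 228-fold higher than in PBS (limma adjusted p of the contrast = 0.000462). Hoxa10 had 0 reads in PBS and 1 in I60, and 2.62 and 2.34 CPM in C40, at least 96.6-fold above PBS and at a ratio of 266 (95% interval 47.3 to 10542) to I60 (adjusted p = 0.000711). Hoxa7 was at 0.105 and 0.216 CPM in PBS, 0.206 and 0.295 in I60 and 2.18 and 1.69 in C40 (contrast 1.79 (SE 0.21), adjusted p = 0.00331). These 3 were low in I60 as in PBS and were called against each group.

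The other 4 were shared more with I60. Hoxb6 was at 0 reads in PBS, 2.87 and 3.13 CPM in I60 and 5.03 and 2.74 in C40, so that the lines overlapped, and it left the class without PBS-1, C40-1 or I60-1 (limma adjusted p 0.00338 to 0.0555). Hoxa3, Hoxa5 and Hoxb5, named after their values were seen, stood 0.75, 0.13 and 0.63 above I60 on the log2 scale, none of them called (adjusted p = 0.122, 0.823 and 0.20). The class was lost for Hoxa3 without I60-1 (adjusted p 0.00924 to 0.0555) and for Hoxa5 in every such fit except that without C40-2 (0.020 to 0.0907). Whether the counting used strand is not given, so reads of Hoxa3 and Hoxa5, whose annotated spans overlap, and of antisense RNAs in these clusters cannot be told apart. Below the filter, Hoxb7 was at 0.54 and 0.644 CPM in C40 and 0 reads in the other 4 libraries, and Hoxb9 reached 0.0208 and 2.56 CPM in C40 against at most 0.0187 CPM elsewhere, so that 1 C40 library carried it.

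**Figure D3:**
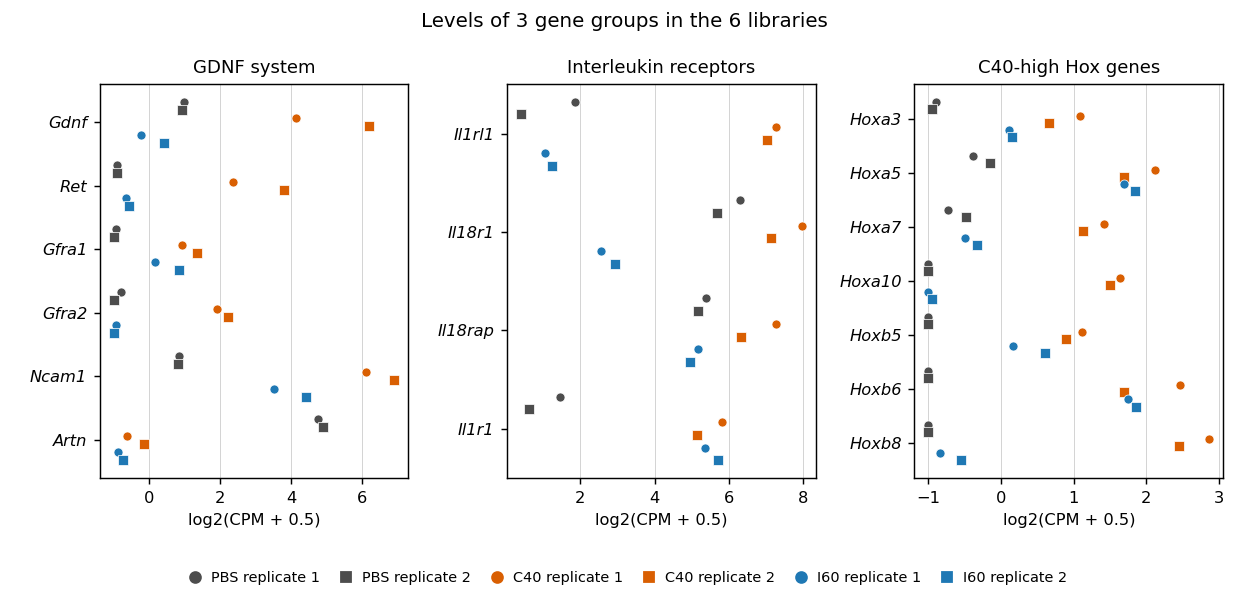
Levels of the GDNF system, the interleukin receptors of chromosome 1 and the 7 C40-high Hox genes on the log2(CPM + 0.5) scale, 1 point per library. Gdnf, Ret, Gfra2, Il1rl1, Hoxa7, Hoxa10 and Hoxb8 were low in PBS and I60 alike. Il1r1, Hoxa5 and Hoxb6 overlapped between I60 and C40, and Artn was high in PBS alone.

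The other gene lists were described by counts and medians. Their counts are to be read beside the shares over all genes tested, 4.99% C40-high and 2.41% C40-low. Of 16 tested genes of the neural-type list, which overlaps the GDNF system, 8 were C40-high and 0 C40-low (median contrast 1.45), 4 of them called against each group. Of the 8, Cntnap1, Gfra1 and Ret passed the filter only through C40. Besides Ncam1, Dpysl3, Ret and Gfra1 these were Tubb3, Cntnap1, Ngfr and Bdnf. Tubb3, a tubulin of neurons, was at 11.3 and 1.53 CPM in PBS, 1.91 and 3.43 in I60 and 35.1 and 29.9 in C40 (contrast 3.08 (SE 0.64), adjusted p = 0.0284), and left the class without C40-2, I60-1 or I60-2 (adjusted p 0.00897 to 0.121). Ngfr, the low-affinity neurotrophin receptor, named after its value was seen, was at 23 and 27.7 CPM in PBS, 2.1 and 1.81 in I60 and 65.3 and 34.4 in C40. C40 was not called above PBS (0.90, adjusted p = 0.101), and it was above I60 by 4.29. Its ligand gene Bdnf was at 11.1 and 6.34 CPM in PBS, 4.85 and 9.06 in I60 and 18.2 and 27.6 in C40 (contrast 1.52 (SE 0.35), adjusted p = 0.0393), and lost its place in every such fit except that without C40-1 (adjusted p 0.0261 to 0.126), as did Cntnap1 (0.0335 to 0.135).

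Semaphorins, ephrins and their receptors steer growing axons and vessels. Of 31 tested, 7 were C40-high and 1 C40-low (median contrast 0.39), where 4.99% and 2.41% of all genes tested were. Sema3a, a secreted repellent, was at 5.27 and 2.17 CPM in PBS, 3.69 and 6.74 in I60 and 40.8 and 27.9 in C40 (contrast 2.88 (SE 0.39), limma adjusted p = 0.00589). Sema3b was at 0.263 and 0.116 CPM in PBS, 1.12 and 1.53 in I60 and 6.09 and 6.02 in C40 (contrast 2.55 (SE 0.22), adjusted p = 0.00107). With Sema5a, these 2 were the members called against each group. The others were Sema4c, Sema7a, Nrp2 and Ephb2, of which the first 3 left the class in 3, 5 and 1 of the 6 fits without a library. Epha4, an Eph receptor, was the C40-low member, at 17.4 and 8.45 CPM in PBS, 1.2 and 1.77 in I60 and 0.894 and 0.147 in C40, so that it was low in I60 too. It left the class without PBS-1, I60-1 or I60-2 (adjusted p 0.00465 to 0.0699).

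Of 17 tested mesenchymal genes, 11 were C40-high and 0 C40-low, with a median contrast of 1.78. With 1 library left out the count was between 3 (without I60-1) and 10 (without C40-1), and it was 5 without PBS-1, 4 without PBS-2 and 6 without I60-2. Their median difference was 2.36 from PBS and 0.37 from I60, so the median member lay much nearer to I60 than to PBS. Only Prrx1 and Fn1 were called against each group. Prrx1, a transcription factor of mesenchyme (chromosome 1, 163245119 to 163315145), was at 13.1 and 9.97 CPM in PBS, 5.17 and 6.56 in I60 and 74.1 and 96 in C40 (contrast 3.29 (SE 0.22), limma adjusted p = 0.000611), above PBS in C40 and below it in I60 (-0.91, adjusted p = 0.0388). Fn1 (fibronectin; chromosome 1, 71585473 to 71653280) was at 1119.8 and 1725 CPM in PBS, 958 and 2269 in I60 and 4869.7 and 10677 in C40 (contrast 2.33 (SE 0.44), adjusted p = 0.0213), and left the class without PBS-1, PBS-2, C40-2 or I60-1 (adjusted p 0.00738 to 0.0953).

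Repressors of epithelial genes were on the same list. Snai2 was at 0.21 and 0.0996 CPM in PBS, 0.169 and 0.405 in I60 and 1.21 and 4.65 in C40 (contrast 2.06 (SE 0.43), limma adjusted p = 0.0286). It was not called above I60 (1.93, adjusted p = 0.0608) and left the class without PBS-1, PBS-2, I60-1 or I60-2 (adjusted p 0.00123 to 0.119). Zeb1, Zeb2, Snai1 and Twist2 were named after their values were seen. Zeb1 and Zeb2 lay only 0.17 and 0.30 above I60, not called (adjusted p = 0.871 and 0.776), and their libraries overlapped with those of I60. They left the class without C40-2 or I60-1, and further without I60-2 for Zeb1 and PBS-1 or PBS-2 for Zeb2 (adjusted p 0.0154 to 0.128 and 0.00827 to 0.0878). Snai1 stood at 14.1 and 16.3 CPM in PBS, 27.6 and 28.5 in I60 and 42.3 and 31.2 in C40 (contrast 0.80 (SE 0.20), adjusted p = 0.0497), a place lost in every such fit except that without C40-2 (0.0322 to 0.174). Twist2 was at 17.5 and 13.7 CPM in PBS, 5.73 and 4.97 in I60 and 34.9 and 23.1 in C40, higher in C40 than in I60 by 2.31 (adjusted p = 0.00295) and not called against PBS (0.85, adjusted p = 0.0749). It left the class without PBS-2 or I60-2 (adjusted p 0.00662 to 0.0527).

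The remaining mesenchymal members were Cdh2, Axl, Pdgfra and Pdgfrb. Cdh2 (N-cadherin) had 1 read in PBS, 41 and 46 CPM in I60 and 81 and 71.4 CPM in C40 (limma adjusted p of the contrast = 0.000205), a difference from I60 of 0.80 that was not called (adjusted p = 0.0759). Pdgfra, a growth factor receptor of mesenchymal cells, was at 6.74 and 5.86 CPM in PBS, 11.4 and 19.5 in I60 and 43.4 and 27.3 in C40 (contrast 1.77 (SE 0.29), limma adjusted p = 0.0132) and left the class without PBS-1, PBS-2 or I60-1 (0.010 to 0.0629). Axl, a receptor kinase, was at 1545 and 1695 CPM in PBS, 1109 and 1038 in I60 and 2239 and 2188 in C40, with a contrast of 0.75 (SE 0.14) (adjusted p = 0.022), lost when any PBS or I60 library was dropped (0.0338 to 0.115). The libraries of Pdgfrb overlapped between C40 and I60. It left the class without C40-1 or I60-1 (0.000567 to 0.0555).

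Genes that build the matrix rose beyond both groups at some steps and not at others. Of 16 tested collagen genes, 2 were C40-high, Col12a1 and Col1a1, while the median contrast of 1.18 came from the step between PBS and the treated lines (median difference 2.56 from PBS and -0.08 from I60). Col12a1, a collagen that sits on fibrils, was at 7.28 and 3.98 CPM in PBS, 12.7 and 15.9 in I60 and 91.3 and 36.1 in C40 (contrast 2.64 (SE 0.41), limma adjusted p = 0.00989), and left the class without I60-1 (0.00216 to 0.0591). Of 18 genes that fold and crosslink collagen, 6 were C40-high and 1, Loxl4, C40-low. Of these 6, Loxl1 and Loxl3 passed the filter only through C40, so the count follows in part from the filter. P3h3, a collagen prolyl hydroxylase, was at 0.035 and 0.0332 CPM in PBS, 1.07 and 2.16 in I60 and 15.7 and 12.5 in C40 (contrast 3.79 (SE 0.27), adjusted p = 0.000711), and Loxl3, a lysyl oxidase, at 0.35 and 0.149 CPM in PBS, 0.431 and 0.516 in I60 and 10.2 and 5.96 in C40 (contrast 3.29 (SE 0.27), adjusted p = 0.00104). Both were called against each group. The collagen chaperone Serpinh1 overlapped between I60 and C40 (difference 0.09, adjusted p = 0.919), and left the class without C40-2 or I60-1.

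Proteoglycans and matricellular proteins held 7 C40-high and 0 C40-low genes of 24 tested (median contrast 0.37). Bgn (biglycan, a small proteoglycan of collagen matrices) was at 0.070 and 0.0498 CPM in PBS, 1.63 and 1.49 in I60 and 11.6 and 7.17 in C40 (contrast 3.16 (SE 0.24), limma adjusted p = 0.000845). Dcn (decorin, its relative) had 1 read in PBS, 0.112 and 0.276 CPM in I60 and 3.14 and 4.05 CPM in C40, a ratio of C40 to PBS of 425 (95% interval 75.8 to 16834) (adjusted p = 0.000837). With Efemp2, these were the members called against each group. Fbln2 (fibulin-2) was at 656 and 606 CPM in PBS, 11.9 and 18.5 in I60 and 532 and 933 in C40. It was low in I60, while C40 and PBS overlapped, so that the contrast was called (2.84 (SE 0.27), adjusted p = 0.00162) although the difference from PBS was not (0.16, adjusted p = 0.746), and the class was lost without C40-2. The others were Sdc2, Gpc1 and Fbln1, which left the class in 6, 4 and 5 of the 6 fits without a library.

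Matrix proteases and their inhibitors held 4 C40-high and 2 C40-low genes of 20 tested. The collagenase Mmp13 was at 4.94 and 1.61 CPM in PBS, 15 and 28.2 in I60 and 42 and 78.8 in C40 (contrast 2.78 (SE 0.47), limma adjusted p = 0.0135), Mmp19 at 0.98 and 0.382 CPM in PBS, 1.85 and 2.86 in I60 and 7.07 and 16.2 in C40 (2.65 (SE 0.39), adjusted p = 0.00828) and the gelatinase Mmp9 at 2.03 and 0.697 CPM in PBS, 2.64 and 3.11 in I60 and 9.87 and 9.53 in C40 (2.07 (SE 0.32), adjusted p = 0.00993). All 3 left the class without I60-1 (adjusted p 0.00904 to 0.0656, 0.00218 to 0.0509 and 0.0111 to 0.0572). The fourth was Mmp11. Plat, the tissue activator of plasminogen, was C40-low, at 29.3 and 20.6 CPM in PBS, 72.6 and 119 in I60 and 17 and 9.2 in C40, a place lost without PBS-1 or I60-2 (0.00484 to 0.0681), and so was Adam8, in none of the 6 fits without a library.

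Growth factor and Wnt genes held members in both classes, where 4.99% of all genes tested were C40-high and 2.41% C40-low. Of 17 tested genes of the Wnt list, 4 were C40-high (Wnt5a, Wnt9a, Lef1 and Tcf7) and 2 C40-low (Wnt4 and Notum). Wnt5a and Lef1 kept their class with any 1 library left out, while Wnt9a, Tcf7, Wnt4 and Notum lost it in 4, 5, 3 and 5 of the 6 fits. Wnt5a, a ligand of the branch that does not use beta-catenin, had 0 reads in PBS, 2.08 and 6.67 CPM in I60 and 18.4 and 8.32 CPM in C40, at least 511-fold above PBS (limma adjusted p of the contrast = 0.00887). Against I60 it was not called (1.59, adjusted p = 0.142). None of the list's members was called against each group (0 higher and 0 lower). Nrg1, a ligand of ErbB receptors, was at 9.94 and 7.85 CPM in PBS, 6.03 and 4.2 in I60 and 23.5 and 23.8 in C40 (contrast 1.75 (SE 0.23), adjusted p = 0.00518), the opposite of Tgfa, another such ligand, at 90.9 and 93.6 CPM in PBS, 51 and 45.6 in I60 and 27.7 and 27 in C40 (contrast -1.27 (SE 0.15), adjusted p = 0.00331). Each was called against both groups, and they were the only members of the 20 ErbB and MAPK genes tested in either class. On the C40-high side this is near the share over all genes tested. Tbx3, a transcription factor of mammary development, had 0 reads in PBS, 1.01 and 0.461 CPM in I60 and 9.0 and 5.87 CPM in C40 (at least 287-fold above PBS, adjusted p of the contrast = 0.00107).

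Over all genes tested 92.6% lay in neither class, the share against which genes that meet oxidants are read. Of 26 tested NRF2 targets, 3 were C40-high, 1 C40-low and 22 in neither, with a median contrast of 0.01. Osgin1, a growth inhibitor induced by oxidants, was the C40-low one, at 36.7 and 34.6 CPM in PBS, 37.7 and 45.5 in I60 and 11.1 and 19.98 in C40 (contrast -1.34 (SE 0.26), limma adjusted p = 0.0219), and Ugdh, Gstp1 and the heme oxygenase Hmox1 had contrasts of 0.61, 0.71 and 0.71. All 4 left their class when any PBS or I60 library was dropped, Ugdh also without C40-1 and Hmox1 without either C40 library (highest limma adjusted p 0.0961, 0.115, 0.105 and 0.137 for Osgin1, Ugdh, Gstp1 and Hmox1). Of 28 genes that remove peroxide and superoxide, 2 were C40-high and 0 C40-low (median contrast 0.01). Prdx5, a peroxiredoxin of mitochondria and peroxisomes, was at 74.6 and 61.9 CPM in PBS, 99.7 and 103 in I60 and 172 and 233 in C40 (contrast 1.27 (SE 0.17), adjusted p = 0.00652) and was called against each group. Msra, which repairs oxidized methionine, was at 2.08 and 2.31 CPM in PBS, 6.48 and 6.01 in I60 and 9.31 and 8.96 in C40 (contrast 1.18 (SE 0.20), adjusted p = 0.0131), and left the class without PBS-1, PBS-2, I60-1 or I60-2 (0.023 to 0.0647).

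Nox4, an oxidase that makes H2O2, was looked up after its value was seen (chromosome 7, 87244430 to 87398710). It was at 0.123 and 0.083 CPM in PBS, 0.0562 and 0.184 in I60 and 2.51 and 2.67 in C40, with a contrast of 2.34 (SE 0.20) (limma adjusted p = 0.00107), and was called against each group (adjusted p = 0.000694 against PBS and 0.00124 against I60). The 2 C40 libraries were alike and the 4 others close to 0. Gstt1, a glutathione transferase, was at 0.333 and 0.083 CPM in PBS, 0.0562 and 0.111 in I60 and 1.89 and 2.93 in C40 (contrast 2.17 (SE 0.25), adjusted p = 0.00331). It was 1 of 3 C40-high genes among 22 tested transferases and efflux genes, with Gstp1 and Aldh2.

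NF-kB targets and cytokines had 4 C40-high genes of 21 (Il1rl1, Nfkbie, Tnfaip2 and Vcam1), where 4.99% of all genes tested were C40-high, and a median contrast of 0.89, or 0.92 with groups at 0 set to the floor. Vcam1 left the class without PBS-1, PBS-2, C40-2 or I60-1, and Tnfaip2 without PBS-1 or PBS-2. Lysosome and autophagy genes had 4 of 29, among them Tfeb, the master regulator of lysosomal genes, at 2.0 and 1.99 CPM in PBS, 6.24 and 5.29 in I60 and 9.04 and 6.71 in C40. All 4 (Tfeb, Ctsb, Atp6v0d1 and Atp6v1h) left the class without PBS-1, PBS-2 or I60-1 (highest limma adjusted p 0.103, 0.0877, 0.148 and 0.149). No member of either class was found among 25 cholesterol genes (median contrast -0.76), 34 genes of DNA replication and mitosis (-0.30), 20 heat shock chaperones (-0.36), 24 genes of the Myc network (-0.03), 15 of MHC class I (0.34) and 5 histones (-0.01). These counts are from the fit of all libraries, and the C40 libraries differed most for 2 of these lists. The median of C40 replicate 2 minus replicate 1 was -1.12 for the cholesterol genes and -0.89 for the replication genes, where it was -0.04 over all genes tested. For the Myc network it was 0.45. Such a gap enters the estimate of the spread, so a count of 0 does not show that these genes were level across the groups.

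Over all genes tested, 4.99% were C40-high and 2.41% C40-low. Of 18 FGF and PDGF genes, 4 were C40-high (Fgf13, Pdgfc, Pdgfra and Pdgfrb) and 0 C40-low, none called against each group. Fgf13 and Pdgfc left the class in every fit without a library except that without C40-1. Of 23 genes of TGF-beta and BMP signalling, Ltbp1 and Ltbp2 were C40-high and Bmp4 C40-low. Ltbp2 passed the filter only through C40, and Ltbp1 was not called above PBS (0.24, limma adjusted p = 0.405). Bmp4 was at 1.59 and 1.56 CPM in PBS, with 1 read in I60 and 0 in C40. It was thus low in both lines, with no called difference between them (-0.03, limma adjusted p = 0.963). Ltbp1 left its class without PBS-1, PBS-2, C40-2 or I60-1, and Bmp4 without I60-1 or I60-2. Of 15 interferon-response genes, Ifit2, an interferon-induced RNA-binding protein, was C40-high and called against each group, at 0.385 and 0.282 CPM in PBS, 0.356 and 0.571 in I60 and 7.19 and 3.68 in C40 (contrast 2.67 (SE 0.29), limma adjusted p = 0.00279), and Bst2 (tetherin) C40-low, which it was not without PBS-1, PBS-2, I60-1 or I60-2. Of 6 complement and acute-phase genes, the complement proteases C1s1 and C1ra were C40-high and Orm1 C40-low. Dropping 1 library took C1ra out of its class in 3 fits and Orm1 in 4. C1s1 was at 0.0875 and 0.0166 CPM in PBS, 0.506 and 1.11 in I60 and 2.76 and 2.45 in C40 (contrast 1.89 (SE 0.25), adjusted p = 0.00529). Among 17 contractile genes, Tpm1, Cald1 and Zyx were C40-high beside the C40-low Tpm2, and each of the 3 left the class when PBS-1, PBS-2 or I60-1 was dropped. Sox2, a stem-cell factor, was C40-low at 0.158 and 0.266 CPM in PBS, 9.74 and 7.42 in I60 and 0.229 and 0.11 in C40, where I60 alone stood high, and left the class without PBS-2 or C40-2.

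The integrated stress response list stood out for the gap between the C40 libraries. Its 26 tested genes had a median of 2.14 for C40 replicate 2 minus replicate 1, where the median over all genes was -0.04. In the fit of all libraries 0 were C40-high and 1 C40-low. The C40-low gene was Cbs, which makes cystathionine, at 0.175 and 0.0996 CPM in PBS, 2.25 and 3.28 in I60 and 0 and 0.0184 in C40.

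**Figure D4:**
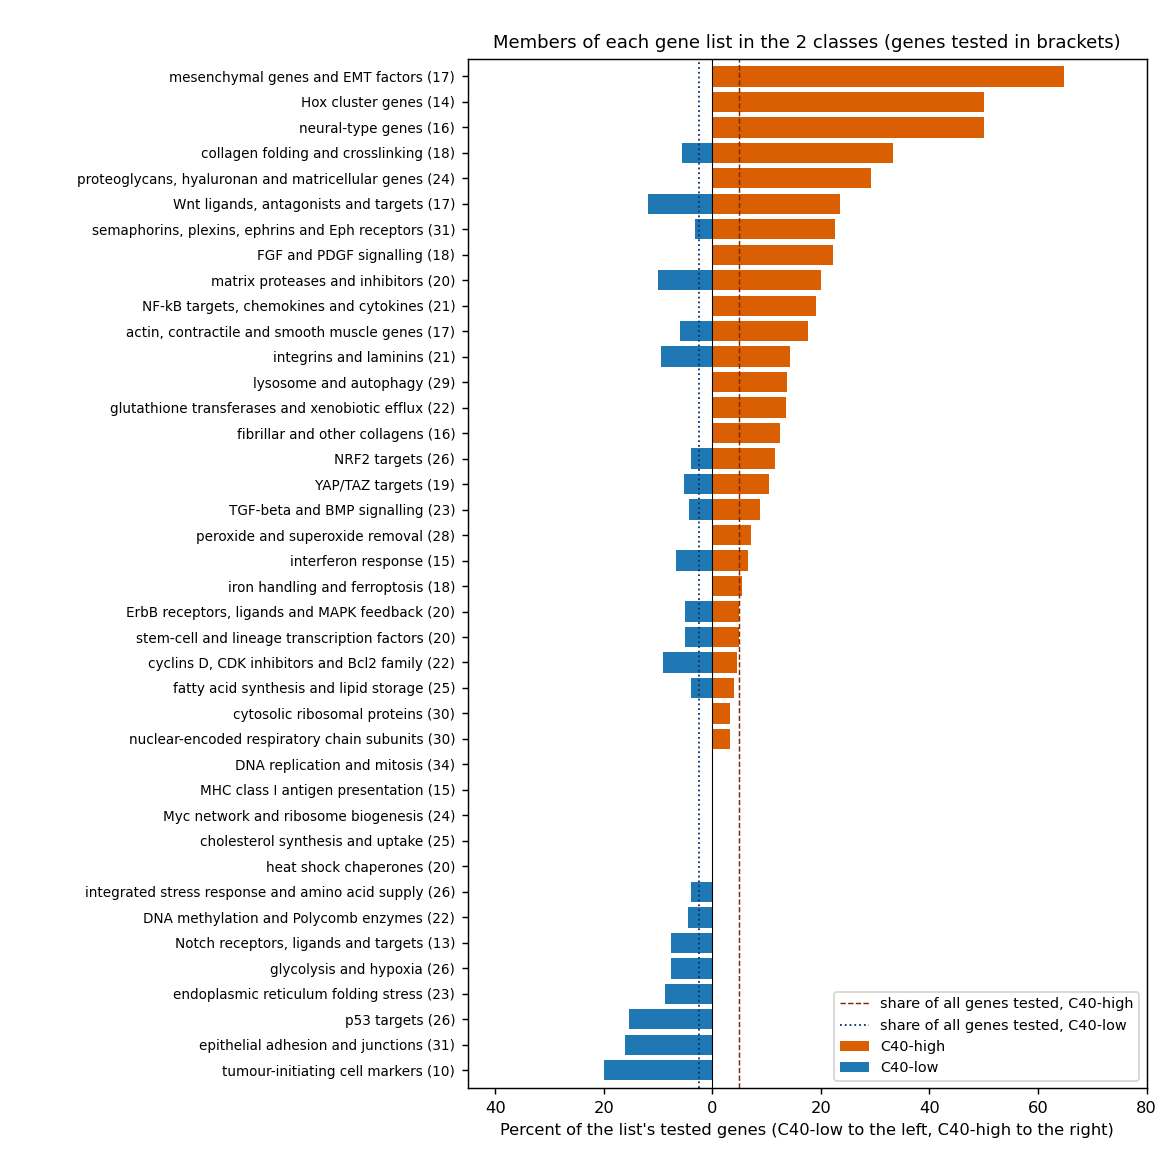
Share of the tested genes of each list that were C40-high (right) or C40-low (left), for lists with at least 10 tested genes, whose number stands in brackets. The dashed and dotted lines mark the shares over all 11524 genes tested (4.99% and 2.41%). In the fit of all libraries, 11 of 17 mesenchymal, 7 of 14 Hox and 8 of 16 neural-type genes were C40-high, of which 1, 5 and 3 passed the filter only through C40.

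The 15 C40-low genes named by rule had the largest smaller difference among those at 5 CPM or more in both other groups. Cd24a, a surface glycoprotein of epithelial cells (chromosome 10, 43579169 to 43584265), led them. It was at 221 and 182 CPM in PBS, 28.3 and 23.1 in I60 and 2.49 and 0.607 in C40, with a contrast of -5.31 (SE 0.38) (limma adjusted p = 0.000711). Both lines were below PBS, I60 by 2.94 and C40 by a further 3.84 on the log2 scale, so that the line kept at the lower dose stood lowest.

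Among the rest were genes known from epithelia. Dsp (desmoplakin, which ties desmosomes to keratin; chromosome 13, 38151294 to 38198577) was at 767 and 671 CPM in PBS, 582 and 560.3 in I60 and 151 and 106 in C40 (contrast -2.33 (SE 0.18), limma adjusted p = 0.000793). Ocln (occludin, a tight junction protein; chromosome 13, 100496504 to 100552718) was at 40.01 and 50.5 CPM in PBS, 11.9 and 16.8 in I60 and 2.99 and 3.86 in C40 (contrast -2.72 (SE 0.24), adjusted p = 0.00117). Tgm5, a transglutaminase of the cornified layer of skin (chromosome 2, 121046111 to 121085841), was at 15.3 and 8.65 CPM in PBS, 6.14 and 7.59 in I60 and 0.333 and 0.147 in C40 (contrast -3.68 (SE 0.29), adjusted p = 0.000869). Aqp3, a channel for water, glycerol and H2O2 (chromosome 4, 41092724 to 41098183), was at 145 and 72.2 CPM in PBS, 40.4 and 47.5 in I60 and 5.47 and 3.0 in C40 (contrast -3.89 (SE 0.34), adjusted p = 0.00117). For Dsp and Tgm5 the difference between I60 and PBS was not called (adjusted p = 0.275 and 0.158), while for Ocln it was lower by 1.64 (adjusted p = 0.00491).

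Snail and Zeb proteins bind the E-box CACCTG in the promoters of epithelial genes. This motif was searched on both strands, so that it reads CACCTG or CAGGTG, in the RefSeq promoters of GRCm38.p6, which run from 250 bases before the start of transcription to 50 after. The letters stood in 16.8% of 9215 promoters of tested genes. Only 75.9% of all C40-low and 72.9% of all C40-high genes had a promoter there, under the 80% set as the least for such a check, so a comparison of motif shares between the classes is void. Of the 15 leading C40-low genes, 10 had a promoter there, and 5 of these held the letters. Of the 15 leading C40-high genes, 11 had one, and 3 held them. These counts are not compared either. The promoters of 4 leading C40-low genes are shown, picked because they hold these letters, with the E-box in capitals and the direction of each gene's transcription from left to right.
Aqp3, minus strand, chr4:41098134-41098433: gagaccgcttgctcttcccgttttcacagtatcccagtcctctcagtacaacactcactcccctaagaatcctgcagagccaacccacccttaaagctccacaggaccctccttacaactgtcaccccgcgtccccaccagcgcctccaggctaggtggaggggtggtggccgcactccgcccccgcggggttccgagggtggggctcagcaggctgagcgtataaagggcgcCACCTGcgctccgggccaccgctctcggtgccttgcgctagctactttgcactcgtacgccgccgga
Tmem51, minus strand, chr4:142084255-142084554: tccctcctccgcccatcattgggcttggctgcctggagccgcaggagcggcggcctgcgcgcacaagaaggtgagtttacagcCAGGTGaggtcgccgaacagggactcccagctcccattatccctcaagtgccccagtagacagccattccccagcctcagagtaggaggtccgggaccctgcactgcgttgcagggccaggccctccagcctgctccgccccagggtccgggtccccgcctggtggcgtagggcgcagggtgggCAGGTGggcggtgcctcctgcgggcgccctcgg
Dsp, plus strand, chr13:38151044-38151343: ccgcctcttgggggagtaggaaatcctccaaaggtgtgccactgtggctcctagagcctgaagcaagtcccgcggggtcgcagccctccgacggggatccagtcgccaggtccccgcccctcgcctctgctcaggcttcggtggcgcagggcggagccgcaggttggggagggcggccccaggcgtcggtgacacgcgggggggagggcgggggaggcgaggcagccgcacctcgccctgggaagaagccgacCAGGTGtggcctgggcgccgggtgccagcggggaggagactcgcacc
Ocln, minus strand, chr13:100552669-100552968: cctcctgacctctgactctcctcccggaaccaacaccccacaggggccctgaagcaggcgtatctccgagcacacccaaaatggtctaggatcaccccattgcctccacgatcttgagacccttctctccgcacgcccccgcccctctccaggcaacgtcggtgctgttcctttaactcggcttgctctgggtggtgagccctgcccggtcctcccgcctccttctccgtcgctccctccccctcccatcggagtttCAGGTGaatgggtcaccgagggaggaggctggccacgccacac
In Aqp3 the box began 17 bases before the start, and the box of Dsp and that of Ocln lay just behind it. Tmem51 held 2, of which 1 began 167 bases before the start. A match of letters is a description and no binding site, and whether any such factor acts at these genes was not tested.

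The other leading C40-low genes were tied to the cytoskeleton, to signalling and to uptake. Tpm2 (beta-tropomyosin, an actin-binding protein; chromosome 4, 43513726 to 43523583) was at 62.8 and 53.3 CPM in PBS, 104 and 99.3 in I60 and 11.3 and 7.8 in C40 (contrast -2.96 (SE 0.20), limma adjusted p = 0.000581). It was above PBS in I60 (0.81, adjusted p = 0.0392) and below it in C40. Pls1, which bundles the actin of microvilli (chromosome 9, 95752642 to 95845306), was at 10.4 and 7.97 CPM in PBS, 10.7 and 15.1 in I60 and 1.56 and 0.515 in C40 (contrast -2.96 (SE 0.34), adjusted p = 0.00308). Lmo7, a protein of adherens junctions (chromosome 14, 101729928 to 101934708), was at 59.96 and 33.3 CPM in PBS, 35.8 and 40.2 in I60 and 10.5 and 2.81 in C40 (contrast -2.79 (SE 0.48), adjusted p = 0.0145), and left the class without PBS-1, I60-1 or I60-2 (0.00106 to 0.0709). Arhgef17, a guanine nucleotide exchange factor (chromosome 7, 100869746 to 100932161), was at 144 and 214 CPM in PBS, 292 and 274 in I60 and 63.9 and 35.2 in C40 (contrast -2.22 (SE 0.27), adjusted p = 0.00397).

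Rapgef5, an activator of Rap (chromosome 12, 117516526 to 117759737), was at 7.26 and 7.12 CPM in PBS, 7.77 and 9.65 in I60 and 0.499 and 0.644 in C40 (contrast -2.97 (SE 0.21), limma adjusted p = 0.000711). Deptor, an inhibitor of the growth kinase mTOR (chromosome 15, 55112317 to 55259273), was at 56.4 and 37.2 CPM in PBS, 51 and 54.4 in I60 and 16.4 and 9.01 in C40 (-1.97 (SE 0.28), adjusted p = 0.00781). Nlrc3, an intracellular receptor that dampens inflammation (chromosome 16, 3943807 to 3979017), was at 18.9 and 16.7 CPM in PBS, 13.5 and 15.7 in I60 and 2.66 and 4.64 in C40 (-2.04 (SE 0.25), adjusted p = 0.00436). For each of these the 4 PBS and I60 libraries lay close together, with both C40 libraries well below. Scara5, a scavenger receptor that takes up ferritin (chromosome 14, 65666403 to 65764826), was at 12.3 and 4.51 CPM in PBS, 6.67 and 5.75 in I60 and 1.43 and 0.11 in C40 (-2.75 (SE 0.54), adjusted p = 0.0227), and left the class without PBS-1, C40-2, I60-1 or I60-2 (0.00406 to 0.102). Tmem51 was at 11 and 10.7 CPM in PBS, 10.1 and 10.6 in I60 and 1.12 and 1.73 in C40 (-2.54 (SE 0.22), adjusted p = 0.00117). Ydjc was at 33.1 and 33.8 CPM in PBS, 30.2 and 24.4 in I60 and 2.54 and 4.45 in C40 (-2.98 (SE 0.25), adjusted p = 0.00107), and its annotated span shares 854 bases with Ccdc116, whose reads fell with it.

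Of 31 tested genes of epithelial junctions, 5 were C40-low (Dsp, Ocln, Ppl, Cgn and Pkp2) and 0 C40-high, with a median contrast of -0.50, or -0.42 with groups at 0 set to the floor. For 26 members C40 was in neither class, and the medians of -2.44 against PBS and 1.22 against I60 place the typical member between the groups. Cdh1 (E-cadherin), for one, was at 529 and 537 CPM in PBS, 0.187 and 0.129 in I60 and 59.7 and 87.8 in C40. Of the 5, Dsp and Ocln were called against each group. Ppl (periplakin) was at 406 and 363 CPM in PBS, 188 and 179 in I60 and 137 and 43.8 in C40 (contrast -1.77 (SE 0.40), limma adjusted p = 0.0375), and left the class without PBS-1, PBS-2, I60-1 or I60-2 (0.000404 to 0.14). Cgn (cingulin) was at 111 and 131 CPM in PBS, 34.6 and 29.7 in I60 and 27 and 25.3 in C40, with a difference from I60 of -0.29 that was not called (adjusted p = 0.444). Pkp2 (plakophilin-2), named after its value was seen, was at 61.4 and 64.4 CPM in PBS, 85.7 and 89.3 in I60 and 35.8 and 48.3 in C40 (contrast -0.83 (SE 0.17), adjusted p = 0.027), lost without PBS-1, PBS-2, I60-1 or I60-2 (0.0129 to 0.102).

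Targets of p53 and inhibitors of the cell cycle were also among the C40-low. Of 26 tested p53 targets, 4 were C40-low and 0 C40-high (median contrast -0.17), where 2.41% and 4.99% of all genes tested were. Mdm2, which marks p53 for breakdown, was at 3500.3 and 2598 CPM in PBS, 242 and 259 in I60 and 202 and 220.3 in C40, so that nearly the whole step lay between PBS and both lines. Tnfrsf10b, a death receptor, was at 85.1 and 79.97 CPM in PBS, 143 and 127 in I60 and 46.9 and 40.7 in C40 (contrast -1.26 (SE 0.15), limma adjusted p = 0.00333). It was above PBS in I60 (0.71, adjusted p = 0.0214) and the only one of the 4 called against each group. Perp, a p53 target of desmosomes, and Zmat3 had contrasts of -1.24 and -0.73, lost without PBS-1 or I60-1, and for Zmat3 also without PBS-2 or I60-2 (0.0025 to 0.0574 and 0.0263 to 0.0816). Of 22 cyclins, CDK inhibitors and Bcl2 genes, Cdkn2a and Cdkn2b were C40-low and Ccnd2 C40-high, the last not without C40-2. Ccnd2 was at 0.0875 and 0.0996 CPM in PBS, 163 and 216 in I60 and 182 and 304 in C40. It was thus high in both lines, whose libraries overlapped, and was not called above I60 (0.32, limma adjusted p = 0.59). Cdkn2a, which encodes inhibitors of CDK4 and of MDM2, was at 111 and 165 CPM in PBS, 44.7 and 39.1 in I60 and 17.1 and 14.2 in C40 (contrast -2.24 (SE 0.21), adjusted p = 0.00154). Cdkn2b, its neighbour, was at 32.4 and 63 CPM in PBS, 17.6 and 23.7 in I60 and 14.4 and 7.73 in C40 (-1.48 (SE 0.35), adjusted p = 0.0455), and left the class in every such fit except that without C40-1 (0.0156 to 0.152).

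Of 21 tested integrin and laminin genes, 3 were C40-high (Itga7, Itgb8 and Lamc1) and 2 C40-low (Itga8 and Lama5), with a median contrast of 0.33. Over all genes tested, 4.99% were C40-high and 2.41% C40-low. Itgb8 and Itga8 each left their class in 4 of the 6 fits without a library, and Lamc1 in 5. Lama5, a laminin chain of epithelial basement membranes, was at 894 and 1119 CPM in PBS, 849 and 1103 in I60 and 447 and 469 in C40 (contrast -1.10 (SE 0.17), limma adjusted p = 0.0105) and left the class without PBS-2 (0.0186 to 0.0532), whereas Itga7, an integrin chain that binds laminin, was C40-high, at 6.74 and 7.22 CPM in PBS, 8.37 and 11.5 in I60 and 26.7 and 34.8 in C40 (1.82 (SE 0.22), adjusted p = 0.00422). Both were called against each group. Of 26 genes of glycolysis and hypoxia, the carbonic anhydrase Car12 and the kinase Pdk1 were C40-low and 0 C40-high. Car12 was at 129 and 95.9 CPM in PBS, 63.3 and 59.1 in I60 and 22.5 and 29.7 in C40 (contrast -1.66 (SE 0.19), adjusted p = 0.00349). Pdk1 was at 29.2 and 48.2 CPM in PBS, 47.4 and 75.4 in I60 and 18.3 and 15.6 in C40 (-1.46 (SE 0.28), adjusted p = 0.0216), and left the class without PBS-2, C40-2 or I60-2 (0.0232 to 0.0769).

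Markers of cell types other than epithelium were measured beside these groups. In bulk RNA, fewer cells of a type and less RNA per cell cannot be told apart. Of 14 fibroblast markers 6 were tested and 4 were C40-high (Dcn, Pdgfra, Pdgfrb and Col1a1), and the 14 summed to 6.55 to 8.17 CPM in PBS, 191.6 to 737 in C40 and 438 to 469 in I60. Most of the sum in both treated lines came from Col3a1, which was in neither class. Col3a1 was at 0.0175 and 0 CPM in PBS, 575 and 122 in C40 and 418 and 357 in I60. The fibroblast genes Lum, Fap and Thy1 were at 0 reads in every library. Of 14 immune markers 2 were tested and both were C40-low. Csf1r was at 15.7 and 16.3 CPM in PBS, 14.5 and 11.3 in I60 and 5.9 and 2.81 in C40, and left the class without PBS-1, PBS-2, I60-1 or I60-2 (limma adjusted p 0.00278 to 0.0813). Cd68 was at 4.29 and 4.99 CPM in PBS, 16.2 and 28 in I60 and 4.26 and 3.55 in C40, and left it without PBS-1, PBS-2, C40-2 or I60-2 (0.0325 to 0.11). The pan-leukocyte gene Ptprc was at 0.0184 to 0.35 CPM, and Cd3e, Adgre1 and Tyrobp were at 0. The summed immune markers came to 20.9 to 21.6 CPM in PBS, 6.46 to 10.4 in C40 and 30.9 to 39.6 in I60. Among 12 endothelial markers, Cd34 was C40-high, at 0.158 and 0.0498 CPM in PBS, 70.8 and 70.9 in I60 and 167 and 211 in C40, while Pecam1 and Kdr did not exceed 0.105 CPM. The summed endothelial markers were at 11.9 to 13.2 CPM in PBS, 190.0 to 234.7 in C40 and 99.8 to 105.0 in I60, most of it from Cd34 in the treated lines. The part of these markers in the results was not tested. Of 20 luminal markers 9 were tested, 1 was C40-low (Cd24a) and 0 C40-high. Of 14 basal markers 5 were tested. Snai2 and Lgals7 were C40-high, Lgals7 not without PBS-1, PBS-2 or I60-1. Krt14, a keratin of basal cells, was at 1426 and 692 CPM in PBS, 23.8 and 13.3 in I60 and 276 and 93.3 in C40, and the integrin Itgb4 at 471 and 508 CPM in PBS, 32.3 and 35.6 in I60 and 196 and 191 in C40, so that C40 lay between the groups for both. The basal markers summed to 1202 to 1901 CPM in PBS, 298 to 482 in C40 and 68.9 to 69.2 in I60.

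The classes were spread unevenly over the chromosomes. C40-high genes made up 9.603% of 302 tested genes on chromosome 18, 8.83% of 419 on chromosome 19, 8.08% of 359 on the X and 7.26% of 537 on chromosome 6, and 2.39% of 418 on chromosome 13. The median contrast was 0.30 on chromosome 18 and 0.21 on chromosome 19. C40-low genes made up 4.91% of 550 tested genes on chromosome 3, where the median contrast was -0.22.

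Stretches of 25 neighbouring tested genes, which overlap each other, numbered 11018. Of these, 113 had a median contrast over 0.5 and 83 one under -0.5, and 282 held 5 or more C40-high genes. Those named here were picked as extremes among them. The largest value of the smaller of the medians against PBS and against I60 was on chromosome 1, from 87945119 to 91374217 (Usp40 to Erfe), with a median contrast of 0.97. The medians there were 0.91 against PBS and 0.75 against I60, and 0.97 in C40 replicate 1 and 0.67 in replicate 2 against the other 4 libraries. The stretch held 3 C40-high genes, of which Ramp1, a partner of calcitonin-type receptors, had the largest contrast (2.54), and 1 C40-low gene, Rab17 (-2.16). Others were on chromosome 18, from 10725625 to 23659719 (Mib1 to Dtna, 0.63, with 7 C40-high genes including Cdh2), and on chromosome 19, from 5344705 to 5729666 (Cst6 to Fam89b, 0.53, with 6 including Efemp2). The most C40-high genes in a stretch were 10, on chromosome 7 from 81570655 to 89527187 (Whamm to Prss23), with 0 C40-low. They were Bnc1, Adamtsl3, Mex3b, Stard5, Il16, Cfap161, Gm2115, Fah, Nox4 and Prss23, with contrasts from 0.82 to 3.17. Their differences from PBS ran from 0.999 (Bnc1) to 4.35 (Gm2115), and those from I60 from 0.30 (Cfap161) to 2.32 (Nox4). Some of them thus lay near I60. On the low side, the stretch of chromosome 10 from 117733678 to 126902024 (Slc35e3 to Atp23) had a median contrast of -0.58, and the most C40-low genes in a stretch were 5, in the one that starts at Mdm2. Of these 5, Mdm2 and Rassf3 differed from I60 by only -0.25 and -0.17, and Tmbim4, Rxylt1 and Lrig3 by -1.07, -0.85 and -1.17.

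**Figure D5:**
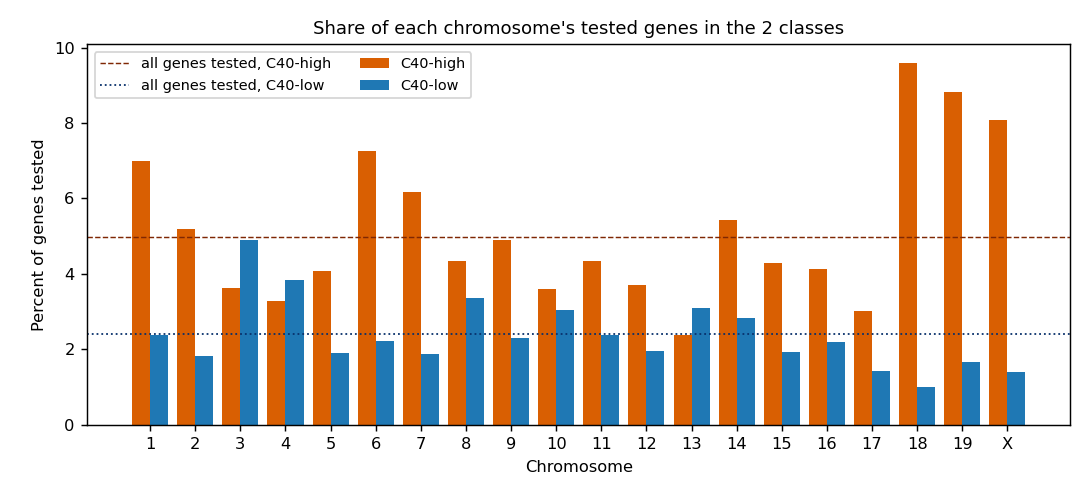
Share of the tested genes of each chromosome that were C40-high or C40-low, with the shares over all genes tested as dashed and dotted lines. Chromosomes 18, 19 and X stand above the others on the C40-high side, and chromosome 3 on the C40-low side.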

How the data were processed

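Total RNA of 6 Py2T cultures (2 each of PBS, C40 and I60) was depleted of ribosomal RNA and sequenced as single reads. The authors deposited 1 table of CPM per gene, with alignment by STAR to mm10 per the submitters' processing notes. The counter and whether it used strand: not given in the sources used here. Whole reads were recovered from the steps of the CPM values (100% within 0.01 of a whole number).

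The members, gene lists and tests were chosen with earlier results of these data known. Genes reaching 1 CPM in 2 or more libraries were kept (11524), and their values log2(CPM + 0.5) were fitted in limma 3.58.1 (R 4.3.3) with 3 groups and an intensity trend. The contrast of C40 with the average of PBS and I60, and C40 against each, were tested two-sided with Benjamini-Hochberg adjustment over all 11524 genes, and an adjusted p below 0.05 was called. With 3 degrees of freedom for the spread, p-values measure the spread between these libraries, which may be technical.

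Genes were named by rule: the 15 in each direction with the largest smaller difference (both C40 libraries outside the other 4, at least 5 CPM), and up to 4 members per list with the largest contrast. Genes at 0 reads in a group are given as a ratio to a floor of 3 reads over that group, and those with 1 to 3 reads as a ratio with its exact 95% interval, which covers counting error only. Symbols and coordinates are from RefSeq on GRCm38.p6, where 24374 of 24454 rows matched. Of 143 genes named or looked up, 40 overlap another annotated gene, so their reads may be shared. Alternatives were other pseudocounts, filters and scalings, a replicate block, array weights, edgeR 4.0.16, DESeq2 1.42.0, 1 pooled control group and leaving out each library.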

Additional observations from a re-analysis of the deposited data

Results flagged for a closer look

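For 5 named genes the C40 and I60 lines moved in opposite directions from PBS, with both differences called by limma, and C40 was also called against I60. C40 minus I60 was 5.18 on the log2 scale for Efemp2, 4.79 for Il18r1 and 3.75 for Prrx1, all 3 higher in C40 than in PBS and lower in I60. It was -3.37 for Tpm2 and -1.62 for Tnfrsf10b, which were lower in C40 than in PBS and higher in I60. Over all genes tested, 17 moved up in C40 and down in I60, and 11 the other way.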

How the results depend on the processing

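Dropping 1 library at a time gave between 291 and 1096 genes called higher, 149 and 1018 called lower, 229 and 946 C40-high and 99 and 856 C40-low. The highest values came without C40 replicate 1, and the counts fell by over 1.5 times without any PBS or I60 library. With array weights they were 474, 240, 383 and 160, and with DESeq2 on recovered reads 1297, 629, 989 and 518. edgeR on those reads called 880 higher and 294 lower. Quantile normalization raised the C40-low genes to 486. Asking that C40 be called against each group left 196 and 71. With PBS and I60 as 1 group, limma called 3 higher and 0 lower (605 higher and 412 lower at an unadjusted p under 0.05), so 3 were C40-high and 0 C40-low. Of the genes called, 63.1% were higher in the fit reported, 75.0% with edgeR, 54.1% after quantile normalization and 51.8% without C40 replicate 1. In each case the cause was not tested.

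A replicate block gave 903 higher, 530 lower, 739 C40-high and 372 C40-low genes, and kept 574 and 277 of the members. The labels tie no libraries by number, and 2 numbers are too few to settle a pairing from the data. The differences between replicates correlated across genes at 0.15 for PBS and C40, 0.11 for PBS and I60 and 0.44 for C40 and I60. Of 2549 values of named genes under the alternatives, 2051 stayed on their side of the threshold, 498 fell short of it and 0 reversed, the pooled control group accounting for the most. No scaling moved the median contrast by over 0.1. The number of libraries, 2 per group, limits the precision.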
